A study of Arabidopsis thaliana with 18 samples.

Results

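The transcriptional response to induced PAD4 was followed in Arabidopsis thaliana leaves, and the comparison described here is how the effect of estradiol differed between 12 h and 6 h after spraying. For each gene the effect at one time is the log2 ratio of estradiol-treated to mock-treated leaves, and the difference is the effect at 12 h minus the effect at 6 h. A difference of 1 therefore means that the estradiol-to-mock ratio was 2 times as high at 12 h. The comparison uses 12 of the 18 libraries of the series, 3 in each of 4 groups, and it bears on when the response begins. Among 19227 genes tested, 152 (0.791%) had a difference that passed the test, 60 of them positive (0.312%) and 92 negative (0.478%).

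EDS1 and PAD4, a pair of lipase-like proteins, form a heterodimer and relay signals from intracellular TIR-type receptors, through helper NLR receptors, to transcriptional defence. The dimer is also known for raising synthesis of the hormone salicylic acid, which is made from chorismate by way of isochorismate and glutamate conjugation and is perceived by the NPR proteins. In leaves, salicylic acid signalling is known to oppose the jasmonate pathway and to go along with reduced growth.

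All plants carried the same transgenes in the same mutant background, so the groups differ by spray and time. The line, ED-P4E1, is a Col-0 eds1-2 pad4-1 double mutant in which the constitutive 35S promoter drives EDS1 and an estradiol-inducible promoter drives PAD4. Plants of 4 weeks, kept at 22 °C with 10 h of light per day, were sprayed with 10 µM estradiol or with the mock, 0.2% DMSO, each containing 0.01% of the wetting agent silwet, and leaves were sampled at 6 and 12 h (the series also has 24 h groups, used here only in estimating the spread). No line without the transgene was analysed here, so an effect of estradiol itself and an effect of PAD4 cannot be told apart, and EDS1 came from a promoter active in most tissues.

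Gene counts per library ran from 22.6 to 37.5 M, so that 3 counts, taken as the floor, equalled 0.0799 to 0.133 CPM (counts scaled to a library of 1 M). CPM of genes are TMM-scaled. Of 16 flower and seed markers 8 were at 0 in all 12 libraries, among them LFY, CRU3 and OLEO1, and 14 were under 1 CPM in each. The list summed to 25.5 to 68.4 CPM, most of it from AGL20, which was at 24.7 to 65.8 CPM. Of 13 root markers 4 were at 0, among them RHD6 and PLT1, and 11 were under 1 CPM in each, with sums of 24.3 to 30.8 CPM. Estradiol 6 h replicate 3 stood furthest from the other libraries of its group (SD of the log2 differences from their mean 0.274, against 0.161 to 0.244 in the other 11 libraries). Its jasmonate synthesis genes lay at a median of 1.03 above the mock mean (log2), against 0.03 and -0.13 in replicates 1 and 2. Named differences that moved by over 1.5 times or changed call without it are also given without it. Whether replicates are separate plants is not stated by the labels, and the p-values therefore reflect only how these libraries varied, which may be technical.

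PAD4 itself was already higher in estradiol-treated leaves at 6 h. PAD4 (AT3G52430) stood at 33.2, 32.8 and 28.7 CPM in the mock and 129.8, 259 and 256 CPM in the estradiol libraries at 6 h. PAD4 at 12 h was at 15.8, 16.2 and 16.2 CPM in mock and 295, 275 and 354 CPM in estradiol libraries. The estradiol libraries lay above all mock libraries at both times, and replicate 1 was the lowest of the 3 estradiol libraries at 6 h. Its effect was 2.77 ± 0.27 at 6 h and 4.26 ± 0.29 at 12 h (log2 ± SE, here and below), and the difference of 1.49 ± 0.37 did not pass the test (adjusted p = 0.0680, or 0.0487 without estradiol 6 h replicate 3; adjusted p values are from edgeR's quasi-likelihood test with Benjamini-Hochberg adjustment over all genes tested). The PAD4 mock level was 31.5 ± 2.496 CPM at 6 h and 16.1 ± 0.219 CPM at 12 h (mean ± SD, n = 3 per group, as throughout), so the higher ratio at 12 h combines a lower mock level with an estradiol level of 308 ± 40.9 against 215 ± 73.8 CPM. EDS1 (AT3G48090), whose near-identical copy AT3G48080 may share its reads, which was not tested, had a difference of -0.05 ± 0.29 (adjusted p = 0.968; 0.11 on the log2 scale without that library), with levels from 1595 to 3724 CPM over the 12 libraries and groups that overlapped at both times. Reads of the transgenes and of the mutated chromosomal copies fall on the same locus in these counts.

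Most called genes had their larger estradiol effect at 12 h. In the positive class the median effect was -0.11 at 6 h and 0.53 at 12 h, with all 60 effects above 0 at 12 h and 46 below 0 at 6 h. In the negative class the median effect was 0.05 at 6 h and -0.45 at 12 h, with all 92 effects below 0 at 12 h and 69 above 0 at 6 h. The effect at 12 h was at least 2 times as large as that at 6 h for 47 positive and 80 negative genes (127 of 152, 83.6%). The remaining 13 positive and 12 negative genes had effects of opposite sign with neither 2 times the other, and no called gene had an effect at 6 h at least 2 times that at 12 h. Estradiol and mock libraries did not overlap at 12 h for 60 positive and 89 negative genes, and at 6 h for 21 of each class. The share of all genes tested without overlap was not counted, so these numbers have no baseline. The classes and the overlaps are read from the same effects and libraries as the test and are a description. The positive differences were the larger ones, with a median of 0.67 and 14 of size 1 or more, against a median of -0.52 and 2 of size 1 or more in the negative class. Over all genes tested the median difference was -0.02 and its median SE 0.14.

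**Figure D1:**
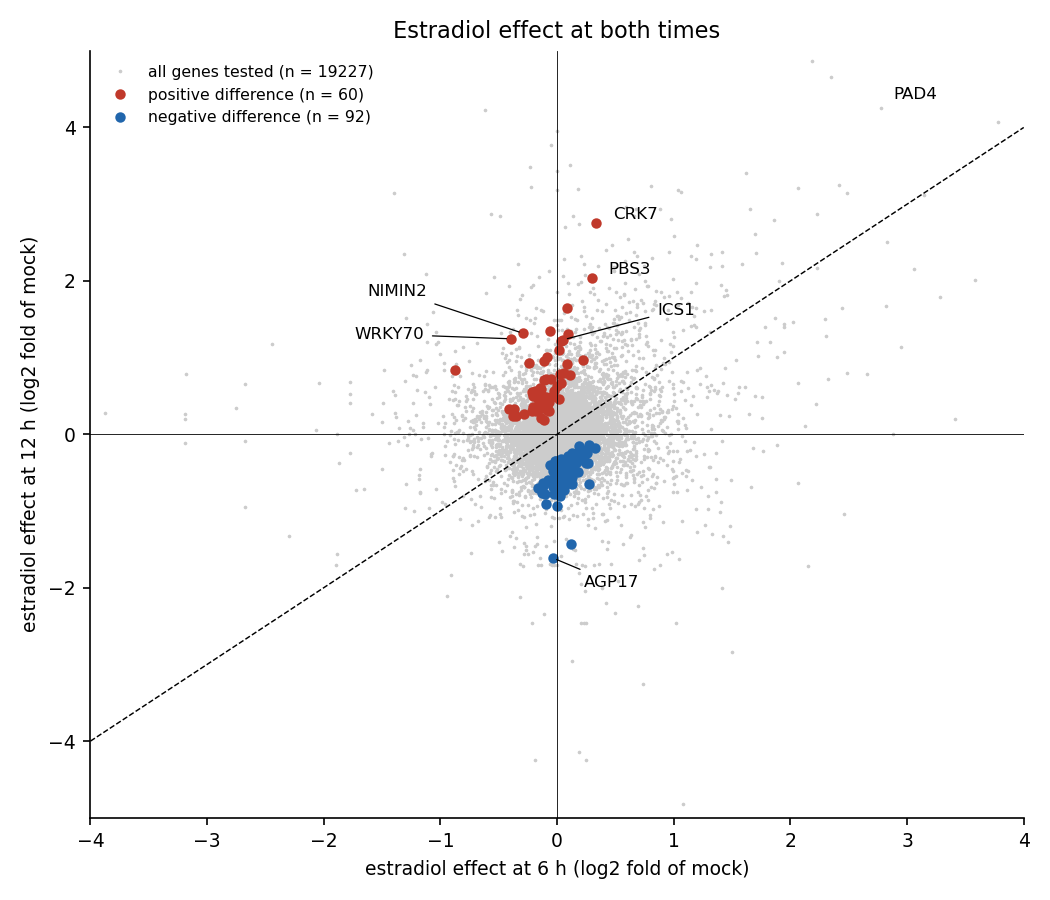
Log2 ratio of estradiol to mock at 6 h (x axis) and at 12 h (y axis) for each gene tested (grey), with the 60 genes of positive difference in red and the 92 of negative difference in blue. The dashed line marks equal effects. The coloured genes lie between -0.87 and 0.34 on the x axis, with the red between 0.19 and 2.75 and the blue between -1.61 and -0.14 on the y axis, while PAD4 is at 2.77 and 4.26. 8 genes lie outside the axes.

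How many genes were called depended on single libraries. Leaving out mock 12 h replicate 2 left 1 positive and 6 negative genes, leaving out mock 6 h replicate 1 left 3 and 9, and leaving out estradiol 12 h replicate 1 left 5 and 12. Leaving out estradiol 6 h replicate 3 gave 113 and 95, and leaving out estradiol 12 h replicate 3 gave 111 and 176. Each of the other 7 libraries, left out alone, lowered the positive count to between 12 and 32 and the negative count to between 18 and 68. The 152 genes were chosen on these same libraries, so the signs of their differences could hardly change. The signs held in every one of these fits and in the 8 other settings tried. Of the named genes, AGP17, MSL5, PIP1;4, GLK2, AT3G21670 and EMB1290 kept their call in all 20 of these fits, and PBS3 in 19. Of the 12 fits without a library, ICS1 passed in 8, DMR6 in 7, and WRKY70, NIMIN2, NPR4 and UGT74F2 in 3 each. Among the 8 other settings at least 1 ended the call of NIMIN2, CRK7, RK1, UGT74F2, SOBIR1, ATTPPA, DFL2, SWEET2, SNZ, CT-BMY, BOR1, MYB29, IAA3, RIN4, FLA13 and CESA6.

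**Figure D2:**
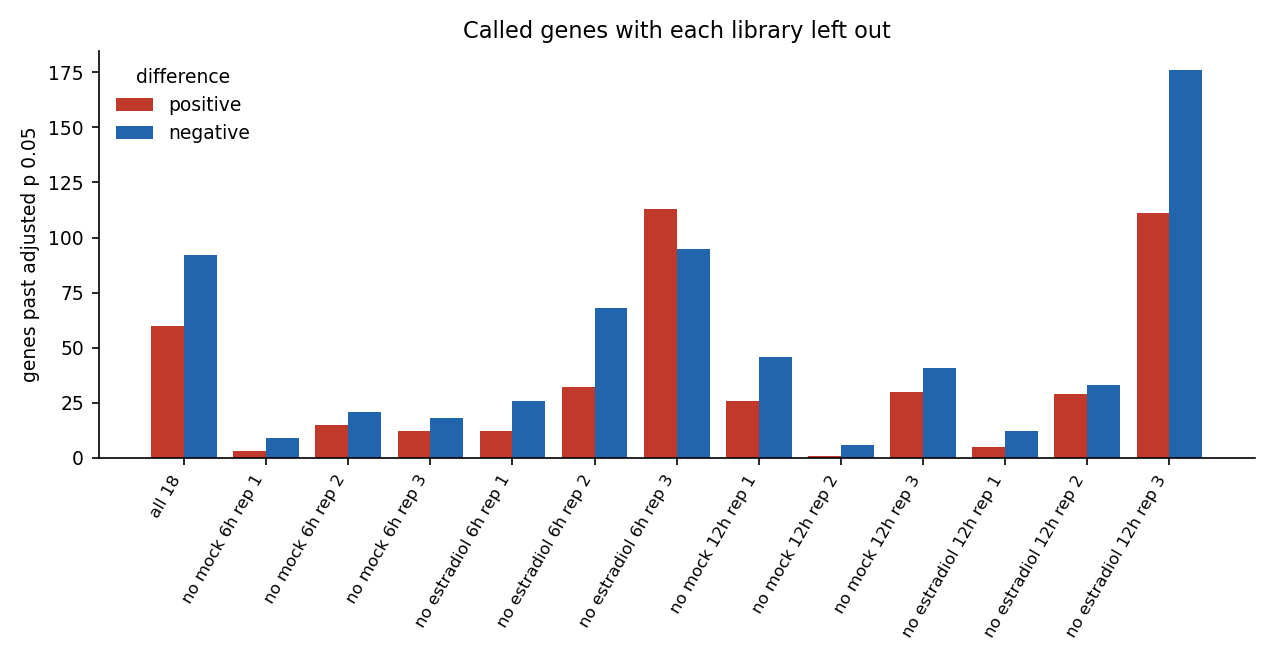
Number of genes past an adjusted p of 0.05 (y axis) with all 18 libraries in the fit and with each library of the 4 groups left out in turn (x axis), positive differences in red and negative in blue. The counts run from 1 and 6 without mock 12 h replicate 2 to 111 and 176 without estradiol 12 h replicate 3.

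Genes of salicylic acid synthesis and turnover gave 4 of the 60 positive calls. Over all genes tested, 0.312% were called positive. Of 11 tested synthesis genes, ICS1 and PBS3 passed, and of 7 turnover genes, DMR6 and UGT74F2 passed, each with a higher estradiol-to-mock ratio at 12 h than at 6 h. No member of either list passed in the negative direction. Of the synthesis genes 6 differences were above and 5 below 0, from -0.69 (PAL4, a phenylalanine ammonia-lyase, the 1 negative at an unadjusted p under 0.05) to 1.74, with a median of 0.12. Of the turnover genes 4 were above and 3 below 0, from -4.33 (BSMT1, a salicylic acid methyltransferase with means under 1 CPM in each group, at -2.46 without estradiol 6 h replicate 3) to 1.78, with a median of 0.57, against -0.02 over all genes.

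PBS3 (AT5G13320), the enzyme that joins isochorismate to glutamate, stood at 3.81, 4.399 and 3.74 CPM in the mock and 4.93, 4.73 and 4.94 CPM in the estradiol libraries at 6 h. PBS3 at 12 h was at 1.297, 0.842 and 0.971 CPM in mock and 5.43, 4.12 and 2.97 CPM in estradiol libraries. The 12 h estradiol libraries were all above the 12 h mock libraries, and the groups were also apart at 6 h, by a smaller margin. Its effect was 0.30 ± 0.17 at 6 h and 2.03 ± 0.20 at 12 h, a difference of 1.74 ± 0.27 (adjusted p = 0.0105; 0.0506 without mock 12 h replicate 2). ICS1 (AT1G74710, EDS16), the isochorismate synthase that starts the pathway, stood at 15.4, 18 and 15.9 CPM in the mock and 16.4, 15.8 and 18.4 CPM in the estradiol libraries at 6 h. ICS1 at 12 h was at 4.71, 4.90 and 5.38 CPM in mock and 14.3, 13.0 and 7.86 CPM in estradiol libraries. At 6 h its groups overlapped and at 12 h they did not. The effect was 0.05 ± 0.14 at 6 h and 1.23 ± 0.15 at 12 h, a difference of 1.18 ± 0.21 (adjusted p = 0.0197). On the TMM scale the mean level of both genes was lower at 12 h than at 6 h, in mock and in estradiol libraries. PBS3 estradiol libraries averaged 4.87 ± 0.117 CPM at 6 h and 4.17 ± 1.23 CPM at 12 h, where replicate 1 lay above all 6 h libraries. ICS1 mock libraries averaged 16.3 ± 1.17 CPM at 6 h and 4.998 ± 0.342 CPM at 12 h, and estradiol libraries 16.9 ± 1.31 and 11.7 ± 3.39 CPM.

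The called turnover genes, DMR6 and UGT74F2, had estradiol levels at 12 h above those at 6 h. DMR6 (AT5G24530), a salicylic acid 5-hydroxylase, stood at 9.16, 5.41 and 8.30 CPM in the mock and 6.45, 8.78 and 9.27 CPM in the estradiol libraries at 6 h. DMR6 at 12 h was at 10.6, 13.1 and 17.0 CPM in mock and 35.4, 32.4 and 33.1 CPM in estradiol libraries. Only the 12 h groups were apart, and the effect of 0.09 ± 0.18 at 6 h and 1.3 ± 0.15 at 12 h gave a difference of 1.21 ± 0.23 (adjusted p = 0.0261). UGT74F2 (AT2G43820), a glucosyltransferase of salicylic acid, stood at 26.9, 25.01 and 22.02 CPM in the mock and 20.9, 21.0 and 26.3 CPM in the estradiol libraries at 6 h. UGT74F2 at 12 h was at 30.8, 23.6 and 25.5 CPM in mock and 65.3, 53.9 and 34.9 CPM in estradiol libraries. Its 12 h groups did not overlap, with replicate 3 the lowest estradiol library, and the difference was 1.07 ± 0.23 (adjusted p = 0.0430, not passed with limma-voom or when the 24 h groups were left out).

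Other synthesis genes did not pass. EDS5, the chloroplast exporter of isochorismate, had an effect of 0.75 ± 0.28 at 6 h and 0.65 ± 0.24 at 12 h and a difference of -0.10 ± 0.37 (adjusted p = 0.951). Its estradiol libraries at 6 h were at 4.70, 4.62 and 11.04 CPM, with replicate 3 alone above 5 CPM, and without that library the difference was 0.45. SARD1, a transcriptional activator of ICS1, had a difference of 0.67 ± 0.31 (adjusted p = 0.357) and its paralog CBP60G one of 0.14 ± 0.28 (adjusted p = 0.896). Without estradiol 6 h replicate 3 these were 1.07 and 0.42 (adjusted p = 0.0724 and 0.546). SARD1 levels at 12 h were 28.4 ± 1.12 CPM with estradiol and 14.1 ± 1.75 CPM with mock, and at 6 h 2.98 ± 1.21 and 2.36 ± 0.392 CPM.

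**Figure D3:**
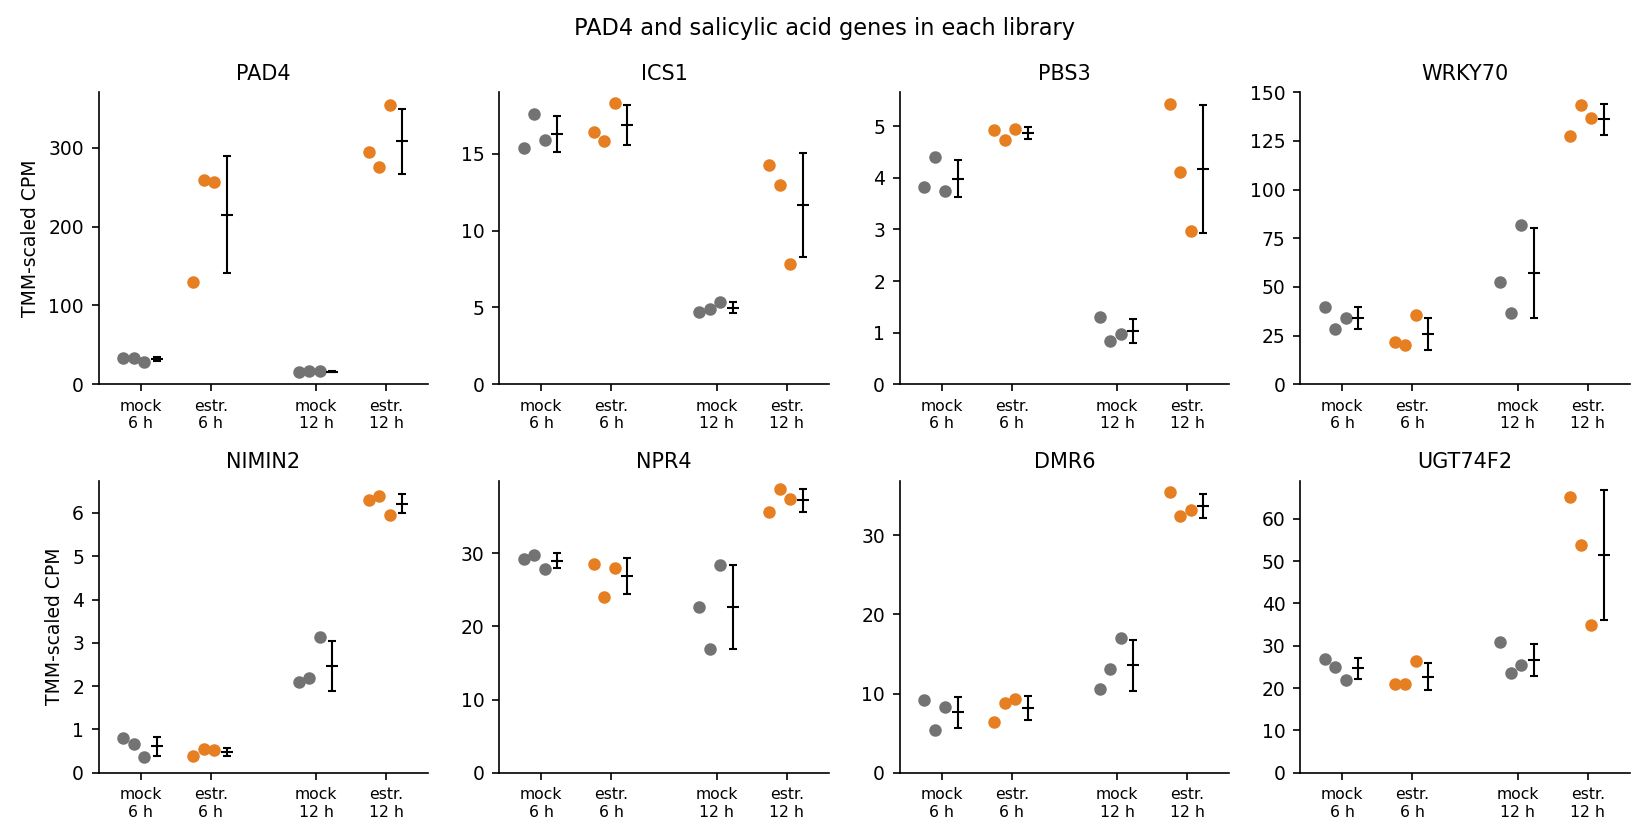
TMM-scaled CPM (y axes, each from 0) of PAD4 and 7 genes of salicylic acid synthesis, turnover and response in each library of the 4 groups (x axis; grey mock, orange estradiol; black bars mean ± SD, n = 3). With estradiol PAD4 lies above mock at both times, and at 12 h every estradiol library of the other 7 genes lies above mock. At 6 h WRKY70, NIMIN2, NPR4 and UGT74F2 have estradiol means below mock. ICS1 and PBS3 have lower mock levels at 12 h than at 6 h, and WRKY70, NIMIN2 and DMR6 higher ones.

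Downstream of the hormone, 2 of 6 NPR and NIMIN genes and 1 of 16 tested WRKY genes of the salicylic acid response passed, each in the positive direction. All 6 and all 16 differences were above 0, with medians of 0.75 and 0.72, and 4 and 8 of them were positive at an unadjusted p under 0.05, a level that 5.2% of all genes tested reached in that direction. NIMIN2 (AT3G25882), a protein that binds NPR1, stood at 0.796, 0.670 and 0.371 CPM in the mock and 0.380, 0.538 and 0.528 CPM in the estradiol libraries at 6 h. NIMIN2 at 12 h was at 2.09, 2.196 and 3.13 CPM in mock and 6.30, 6.40 and 5.96 CPM in estradiol libraries. Its 12 h groups were apart and its 6 h levels were low in both. The effect was -0.29 ± 0.31 at 6 h and 1.32 ± 0.16 at 12 h, a difference of 1.61 ± 0.35 (adjusted p = 0.0443; 0.0528 without estradiol 6 h replicate 3). NPR4 (AT4G19660), a salicylic acid receptor and transcriptional co-repressor, stood at 29.2, 29.8 and 27.8 CPM in the mock and 28.6, 23.98 and 27.9 CPM in the estradiol libraries at 6 h. NPR4 at 12 h was at 22.6, 16.9 and 28.4 CPM in mock and 35.6, 38.7 and 37.4 CPM in estradiol libraries. The difference was 0.82 ± 0.18 (adjusted p = 0.0459), again with groups apart at 12 h alone. NPR3, its close paralog, had a difference of 0.68 (adjusted p = 0.0640) and NPR1, the co-activator, one of 0.23 (adjusted p = 0.329). NPR3 passed without estradiol 6 h replicate 3, at 0.78 (adjusted p = 0.0354).

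WRKY70 (AT3G56400), a transcription factor that acts at the balance of salicylic acid and jasmonate responses, stood at 39.5, 28.2 and 34.1 CPM in the mock and 21.8, 20.04 and 35.4 CPM in the estradiol libraries at 6 h. WRKY70 at 12 h was at 52.8, 36.8 and 82.0 CPM in mock and 128, 143 and 137 CPM in estradiol libraries. Replicates 1 and 2 of the 6 h estradiol group lay below all 6 h mock libraries, replicate 3 lay among them, and at 12 h every estradiol library was above every mock library. The effect was -0.40 ± 0.26 at 6 h and 1.25 ± 0.25 at 12 h, a difference of 1.64 ± 0.36 (adjusted p = 0.0452), and 1.95 without estradiol 6 h replicate 3. WRKY54, its nearest relative, had a difference of 1.47 that did not pass (adjusted p = 0.0908; 0.0317 without that library), with 26.4 ± 1.06 CPM in estradiol and 12.7 ± 5.50 CPM in mock libraries at 12 h, and 11.1 ± 4.26 and 15.1 ± 2.54 CPM at 6 h. SIB1 (AT3G56710), a VQ-motif protein that binds WRKY33, stood at 14.2, 12.9 and 12.8 CPM in the mock and 11.4, 11.4 and 15.3 CPM in the estradiol libraries at 6 h. SIB1 at 12 h was at 11.3, 9.51 and 13.1 CPM in mock and 31.9, 27.8 and 26.3 CPM in estradiol libraries. Its 6 h groups overlapped, its 12 h groups did not, and the difference was 1.40 ± 0.24 (adjusted p = 0.0161). Its paralog SIB2, singled out after its values were seen, had a difference of 0.73 ± 0.12 (adjusted p = 0.0114).

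The promoters of the positive genes were searched for the core of the W-box, TTGAC, to which WRKY factors bind, and for the core of the as-1 element, TGACG, to which TGA factors bind, on both strands of the 250 bases before the gene start as annotated by RefSeq on TAIR10.1 (the build the submitters name is TAIR10, and the count table holds no coordinates). TTGAC was in 36 of 60 positive windows (60%, exact 95% binomial interval 46.5 to 72.4), in 32 of 91 negative windows (35.2%, 25.4 to 45.9) and in 44.6% of the 19100 tested genes with a window. TGACG was in 21 of 60 positive windows (35.0%, 23.1 to 48.4), in 15 of 91 negative windows (16.5%, 9.53 to 25.7) and in 19.3% of all. The cores overlap where a window holds TTGACG, as in 8 positive windows (13.3%) and 7.3% of all, and both cores were somewhere in 15 positive windows (25%) and 12.1% of all. The G-box CACGTG (2 positive and 3 negative windows, 7.36% of all), the GCC-box GCCGCC (0 and 0, 2.01%), the evening element AAAATATCT (1 and 4, 2.51%) and the ER stress response element ERSE (1 and 0, 0.387%) were in few windows. The intervals cover counting error only, and a match is a description of the letters, not of binding.

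The windows of 4 genes are shown because 3 of them are among the largest positive differences and hold the cores, and the fourth, ICS1, is also called and holds neither. They are read 5′ to 3′ toward the gene start, in the strand of the gene, with each TTGAC or TGACG and their reverse complements in capitals. The windows lie at chr3:20910624-20910873 (minus strand) for WRKY70, chr3:9471040-9471289 (minus strand) for NIMIN2, chr4:12125414-12125663 (plus strand) for CRK7 and chr1:28070045-28070294 (plus strand) for ICS1.
WRKY70: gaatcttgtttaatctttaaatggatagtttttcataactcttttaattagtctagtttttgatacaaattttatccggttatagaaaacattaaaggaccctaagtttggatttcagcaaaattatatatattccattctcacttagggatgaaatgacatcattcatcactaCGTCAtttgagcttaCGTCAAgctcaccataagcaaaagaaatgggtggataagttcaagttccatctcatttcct
NIMIN2: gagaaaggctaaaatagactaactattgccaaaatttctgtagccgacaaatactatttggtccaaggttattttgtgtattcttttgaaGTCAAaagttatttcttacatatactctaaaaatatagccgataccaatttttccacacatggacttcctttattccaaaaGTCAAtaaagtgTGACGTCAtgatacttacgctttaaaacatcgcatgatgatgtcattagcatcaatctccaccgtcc
CRK7: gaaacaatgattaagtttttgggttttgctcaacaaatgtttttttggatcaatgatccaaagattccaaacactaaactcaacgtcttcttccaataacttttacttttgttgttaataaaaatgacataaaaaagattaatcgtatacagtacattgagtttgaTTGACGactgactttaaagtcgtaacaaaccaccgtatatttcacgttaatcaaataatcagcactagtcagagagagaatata
ICS1: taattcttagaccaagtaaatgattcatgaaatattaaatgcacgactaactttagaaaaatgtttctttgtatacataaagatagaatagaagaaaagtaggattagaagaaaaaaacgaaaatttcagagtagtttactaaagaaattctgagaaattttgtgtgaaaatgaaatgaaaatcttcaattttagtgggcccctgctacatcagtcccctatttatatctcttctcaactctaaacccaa
In WRKY70 the reverse complement of TTGAC lies 60 to 56 bases before the start and is part of a TTGACG, with another TGACG at 76 to 72. NIMIN2 has TTGAC cores at 160 to 156 and 79 to 75 and a pair of overlapping TGACG cores, on opposite strands, between 67 and 60. CRK7 has 1 TTGACG at 84 to 79.

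Among markers further down the defence response, PR1 and FMO1 had too few counts at 6 h for a difference of effects to be measured. PR1, the classical salicylic acid marker, had 0 counts in all 6 libraries of 6 h, against 0.253, 0.301 and 0.711 CPM in mock and 2.599, 7.12 and 2.57 CPM in estradiol libraries at 12 h, so no difference is given. FMO1, the N-hydroxylase of pipecolic acid, had 1 count over the mock and 5 over the estradiol libraries at 6 h, and 2 and 79 at 12 h. ALD1, the aminotransferase that starts pipecolic acid synthesis, had a fitted difference of 3.82 ± 1.21 (adjusted p = 0.155) and levels of 1.61, 1.64 and 0.306 CPM in the 12 h estradiol libraries, with replicate 3 the lowest. At 6 h its estradiol libraries were at 0.0474, 0.0717 and 0.754 CPM, and without replicate 3 of that group the fitted difference was 6.05 and passed (adjusted p = 0.0314). PR5, a thaumatin-like protein, was higher with estradiol by a similar ratio at both times, 0.58 ± 0.13 at 6 h and 0.53 ± 0.13 at 12 h, and its difference of -0.05 ± 0.18 did not pass (adjusted p = 0.946; a difference of -0.16 without estradiol 6 h replicate 3). PR2, a beta-glucanase, had an effect of 0.85 ± 0.33 at 6 h and 1.68 ± 0.31 at 12 h and a difference of 0.83 ± 0.45 (adjusted p = 0.465), or 1.39 (adjusted p = 0.0839) without estradiol 6 h replicate 3.

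Kinase genes were frequent among the positive genes. RefSeq's product name contained the word kinase for 16 of the 60 positive genes (26.7%), for 3 of 91 negative genes (3.3%) and for 5.69% of all tested genes with a product, a count made after the genes were seen. Of 27 tested cysteine-rich and wall-associated receptor kinases 2 passed, CRK7 and CRK2, both positive, and 13 were positive and none negative at an unadjusted p under 0.05 (5.2% and 7.61% of all genes tested), with a median difference of 0.63. EMB1290 (AT4G23250), annotated as cysteine-rich receptor-like protein kinase 17, is outside that list and was picked out after its values were seen. Its positive difference of 0.54 kept its call in all 8 other settings and all 12 fits without a library. CRK genes lie in tandem clusters with similar sequences, and their reads are uncertain.

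CRK7 (AT4G23150) stood at 0.265, 0.335 and 0.342 CPM in the mock and 0.427, 0.394 and 0.377 CPM in the estradiol libraries at 6 h. CRK7 at 12 h was at 0.538, 0.632 and 0.379 CPM in mock and 4.54, 3.004 and 2.72 CPM in estradiol libraries. It was under 1 CPM in all but the 12 h estradiol libraries. Its difference of 2.42 ± 0.53 (adjusted p = 0.0442) did not pass with limma-voom or without any of 11 of the 12 libraries, estradiol 6 h replicate 3 among them (adjusted p = 0.0577). CRK2 (AT1G70520) stood at 25.1, 24.01 and 21.9 CPM in the mock and 20.2, 19.4 and 21.7 CPM in the estradiol libraries at 6 h. CRK2 at 12 h was at 29.8, 27.1 and 30.5 CPM in mock and 44.4, 38.3 and 40.8 CPM in estradiol libraries. Its estradiol libraries lay below the mock libraries at 6 h and above them at 12 h, with effects of -0.21 ± 0.10 at 6 h and 0.50 ± 0.09 at 12 h and a difference of 0.71 ± 0.13 (adjusted p = 0.0253). CRK3 (AT1G70530), named for the size of its difference and outside that list, had effects of -0.05 ± 0.11 at 6 h and 0.71 ± 0.11 at 12 h and a difference of 0.76 ± 0.16 (adjusted p = 0.0383). RK1 (AT1G65790), an S-domain receptor kinase, had 22.4 ± 2.98 CPM in mock and 42.9 ± 2.06 CPM in estradiol libraries at 12 h, against 13.1 ± 1.85 and 11.1 ± 0.851 CPM at 6 h. The RK1 difference of 1.17 ± 0.26 (adjusted p = 0.0475) was lost with RLE scaling and without 11 of the 12 libraries.

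Of 19 listed surface receptors and co-receptors SOBIR1 passed. At an unadjusted p under 0.05, 10 were positive and none negative (5.2% and 7.61% of all genes tested). SOBIR1 (AT2G31880), the kinase that partners receptor-like proteins, stood at 20.2, 22.5 and 21.1 CPM in the mock and 21.2, 22.9 and 24.7 CPM in the estradiol libraries at 6 h. SOBIR1 at 12 h was at 86.2, 90.4 and 90.6 CPM in mock and 168, 132 and 156 CPM in estradiol libraries. Its mock level was itself higher at 12 h, and the estradiol libraries were above mock at that time, with effects of 0.11 ± 0.11 at 6 h and 0.77 ± 0.10 at 12 h and a difference of 0.66 ± 0.14 (adjusted p = 0.0455). RLP41 (AT3G25010), a receptor-like protein without a kinase domain, stood at 3.38, 2.68 and 2.91 CPM in the mock and 2.56, 3.48 and 3.09 CPM in the estradiol libraries at 6 h. RLP41 at 12 h was at 4.397, 5.05 and 5.17 CPM in mock and 13.5, 10.4 and 10.03 CPM in estradiol libraries. Its groups overlapped at 6 h and not at 12 h, a difference of 1.18 ± 0.20 (adjusted p = 0.0161). FRK1, a kinase induced by bacterial flagellin, had a difference of 1.99 that did not pass (adjusted p = 0.255), and the flagellin receptor FLS2 one of 0.41 (adjusted p = 0.233). Further receptor genes outside the list, picked out after their values were seen, were also called positive. Among them were the leucine-rich repeat receptor-like kinase AT4G08850 (0.74), the receptor lectin kinase RLK (0.63), the leucine-rich receptor-like kinase HAE (0.62) and RLP13 (0.48).

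The EDS1 family and its helper NLR receptors had small positive differences that did not pass. SAG101, the other partner of EDS1, had 10.5 ± 0.230 and 10.5 ± 0.504 CPM in mock and estradiol libraries at 6 h and 16.1 ± 1.55 and 22.2 ± 2.101 CPM at 12 h, a difference of 0.46 ± 0.12 (adjusted p = 0.0816). The helper genes ADR1, ADR1-L1 and ADR1-L2 had differences of 0.46, 0.49 and 0.39 (adjusted p = 0.124, 0.111 and 0.349). All 4 were positive at an unadjusted p under 0.05, as were 5.2% of all genes tested. Of 18 TIR-type and other NLR receptors none passed, and the median difference was 0.09; ZAR1 had the smallest p, with a difference of 0.43 ± 0.12 (adjusted p = 0.0949).

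Calcium signalling genes passed in both directions. Of 25 listed MAP kinase, calcium signalling and oxidase genes, the kinase CPK5 and the channel CNGC20 were positive and the channel CNGC2 negative. Over all genes tested, 0.312% were called positive and 0.478% negative. At an unadjusted p under 0.05, 10 of the 25 were positive and 3 negative (5.2% and 7.61% of all genes tested). Of the 25 differences 19 were above 0. CNGC2 (AT5G15410, also called DND1), a cyclic nucleotide-gated channel whose loss gives high salicylic acid, stood at 128, 131 and 133 CPM in the mock and 129, 123 and 150.3 CPM in the estradiol libraries at 6 h. CNGC2 at 12 h was at 123, 124 and 132 CPM in mock and 82.2, 92.0 and 92.4 CPM in estradiol libraries. Its level was close to flat except for the 12 h estradiol libraries, which lay below all others, and the difference was -0.55 ± 0.09 (adjusted p = 0.0161). CNGC20 (AT3G17700), of the same channel family, had effects of -0.08 ± 0.08 at 6 h and 0.39 ± 0.07 at 12 h, a difference of 0.48 ± 0.10 (adjusted p = 0.0420). CPK5, a calcium-dependent protein kinase, had a difference of 0.46 ± 0.10 (adjusted p = 0.0393), and MLO2 (AT1G11310), a susceptibility factor for powdery mildew and the 1 of 17 tested salicylic acid-inducible genes to pass, one of 0.47 ± 0.11 (adjusted p = 0.0459). Genes of membrane traffic and defence outside the lists, picked out after their values were seen, were also positive: SNAP33, a syntaxin partner, at 0.41 ± 0.09 (adjusted p = 0.0414), EXO70E2, an exocyst subunit, at 0.75 ± 0.14 (0.0263), and RIN4, a guarded immune regulator, at 0.53 ± 0.12 (0.0495).

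Detoxification genes and the remaining large positive differences are given next. PMAT1 (AT5G39050), a malonyltransferase of phenolic glucosides, stood at 25.01, 26.1 and 25.8 CPM in the mock and 22.4, 26.9 and 28.1 CPM in the estradiol libraries at 6 h. PMAT1 at 12 h was at 22.6, 21.4 and 19.1 CPM in mock and 58.2, 44.1 and 31.7 CPM in estradiol libraries. The 12 h estradiol libraries were spread widely but all lay above mock, and the difference was 1.08 ± 0.21 (adjusted p = 0.0296). NAC102 (AT5G63790), a NAC transcription factor, had 20.6 ± 2.28 CPM in mock and 33.9 ± 6.21 CPM in estradiol libraries at 12 h and 20.7 ± 1.33 and 19.3 ± 2.199 CPM at 6 h, a difference of 0.82 ± 0.15 (adjusted p = 0.0253). GSTF8 (AT2G47730), a glutathione transferase, was 1 of 23 tested glucosyltransferases, glutathione transferases and detoxification genes to pass, at 0.59 ± 0.12 (adjusted p = 0.0394). The median of that list was 0.65 (1.11 without estradiol 6 h replicate 3), and 21 of 23 differences were above 0. At an unadjusted p under 0.05, 5 were positive, against 5.2% of all genes tested. In the ER folding list 25 of 28 differences were above 0 with a median of 0.18, none passed, and PDIL1-2, a protein disulphide isomerase, had the smallest p at 0.55 ± 0.16 (adjusted p = 0.119).

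The negative genes included cell wall proteins, aquaporins, transporters and chloroplast regulators. Of 46 growth-linked cell wall and aquaporin genes 4 passed, all negative (AGP17, PIP1;4, PIP2;6 and FLA13), and 16 were negative and none positive at an unadjusted p under 0.05, against 7.61% and 5.2% of all genes tested. The median difference of the list was -0.39, with 40 of 46 below 0. Auxin response genes gave 2 of 26 (IAA3 and PIN3), against 0.478% of all genes tested called negative. The Rubisco and carbon fixation list gave 1 of 17, the transcription factor GLK2, with all 17 differences below 0 and a median of -0.17.

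AGP17 (AT2G23130), a lysine-rich arabinogalactan protein of the cell surface, stood at 15.7, 13.1 and 15.2 CPM in the mock and 14.8, 15.6 and 12.6 CPM in the estradiol libraries at 6 h. AGP17 at 12 h was at 10.06, 12.7 and 11.6 CPM in mock and 3.65, 3.23 and 4.404 CPM in estradiol libraries. The 6 h groups overlapped, and at 12 h the highest estradiol library was below the lowest mock library by more than 2-fold. The effect was -0.04 ± 0.16 at 6 h and -1.61 ± 0.18 at 12 h, a difference of -1.58 ± 0.24 (adjusted p = 0.0105). PIP1;4 (AT4G00430), a plasma membrane aquaporin, stood at 108, 117 and 115 CPM in the mock and 126, 118 and 128 CPM in the estradiol libraries at 6 h. PIP1;4 at 12 h was at 64.1, 58.2 and 56.4 CPM in mock and 43.9, 44.0 and 45.4 CPM in estradiol libraries. Its estradiol libraries were above mock at 6 h and below it at 12 h, with effects of 0.13 ± 0.05 at 6 h and -0.42 ± 0.05 at 12 h and a difference of -0.55 ± 0.08 (adjusted p = 0.00666). FLA13, a fasciclin-like arabinogalactan protein, and PIP2;6, another aquaporin, had differences of -0.36 ± 0.08 and -0.43 ± 0.09 (adjusted p = 0.0495 and 0.0355). FLA13 did not pass without estradiol 6 h replicate 3 (adjusted p = 0.0745). The cellulose synthase subunits CESA5 and CESA6, noted after their values were seen, had differences of -0.50 ± 0.10 and -0.44 ± 0.09 (adjusted p = 0.0365 and 0.0421).

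GLK2 (AT5G44190), a transcription factor for chloroplast development, stood at 221, 227 and 216 CPM in the mock and 219, 217 and 228 CPM in the estradiol libraries at 6 h. GLK2 at 12 h was at 26.6, 30.5 and 28.4 CPM in mock and 19.7, 19.6 and 19.7 CPM in estradiol libraries. The 6 h groups were alike within their spread, while the 12 h estradiol libraries lay closely together below mock, and the difference was -0.54 ± 0.07 (adjusted p = 0.00666). CAT2 (AT4G35090), the peroxisomal catalase of photorespiration, stood at 774, 792 and 801 CPM in the mock and 797, 652 and 759.8 CPM in the estradiol libraries at 6 h. CAT2 at 12 h was at 153, 166 and 190.5 CPM in mock and 92.9, 109 and 94.1 CPM in estradiol libraries. Its estradiol and mock libraries overlapped at 6 h and not at 12 h, at a difference of -0.68 ± 0.14 (adjusted p = 0.0393). CT-BMY (AT4G17090), a chloroplast beta-amylase of starch breakdown, had effects of 0.06 ± 0.10 at 6 h and -0.60 ± 0.10 at 12 h and a difference of -0.66 ± 0.14 (adjusted p = 0.0455; 0.0635 without estradiol 6 h replicate 3). Of 32 antenna and photosystem genes none passed, and their median was 0.07. RVE4 (AT5G02840, LCL1), a morning-phased MYB factor of the clock, was the only clock gene of 32 tested to pass, at -0.46 ± 0.10 (adjusted p = 0.0393).

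Among transporters and channels, NRT1.1 (AT1G12110), the dual-affinity nitrate transporter, stood at 56.5, 54.2 and 55.0 CPM in the mock and 48.8, 46.1 and 56.9 CPM in the estradiol libraries at 6 h. NRT1.1 at 12 h was at 73.9, 87.1 and 75.4 CPM in mock and 44.8, 48.8 and 45.8 CPM in estradiol libraries. Mock levels were higher at 12 h than at 6 h and estradiol levels were not, giving a difference of -0.64 ± 0.13 (adjusted p = 0.0312). MSL5 (AT3G14810), a mechanosensitive channel of small conductance, stood at 44.5, 49.9 and 51.05 CPM in the mock and 55.6, 49.5 and 53.1 CPM in the estradiol libraries at 6 h. MSL5 at 12 h was at 11.1, 12.5 and 12.1 CPM in mock and 7.65, 7.59 and 8.65 CPM in estradiol libraries. Only at 12 h were its groups apart, and the difference was -0.70 ± 0.10 (adjusted p = 0.00740). The vacuolar cation exchanger NHX2, the borate exporter BOR1 and the sugar transporter SWEET2 had differences of -0.77 ± 0.16, -0.60 ± 0.13 and -0.68 ± 0.15 (adjusted p = 0.0358, 0.0455 and 0.0455). AT3G21670, without a symbol and annotated by RefSeq as a major facilitator protein, had the lowest adjusted p of all genes and was picked out for it: it stood at 115, 116 and 116 CPM in the mock and 116, 109 and 152 CPM in the estradiol libraries at 6 h. AT3G21670 at 12 h was at 8.32, 8.39 and 10.4 CPM in mock and 2.94, 4.14 and 3.09 CPM in estradiol libraries, a difference of -1.55 ± 0.18 (adjusted p = 0.00210).

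Further negative genes were of hormone and sugar signalling and of other functions. IAA3 (AT1G04240, SHY2), an auxin-responsive repressor, had effects of 0.26 ± 0.09 at 6 h and -0.37 ± 0.10 at 12 h, a difference of -0.63 ± 0.13 (adjusted p = 0.0365). Its groups were apart at 6 h, with estradiol higher, and overlapped at 12 h. PIN3 (AT1G70940), an auxin efflux carrier, had 38.9 ± 2.03 CPM in mock and 28.9 ± 2.64 CPM in estradiol libraries at 12 h, against 41.7 ± 2.85 and 45.8 ± 4.21 CPM at 6 h, a difference of -0.56 ± 0.11 (adjusted p = 0.0253). DFL2, a GH3 family protein, ATTPPA, a trehalose phosphate phosphatase, CIPK1, a kinase of calcineurin B-like calcium sensors, and SNZ, an AP2-type floral repressor, had differences of -0.79 ± 0.16, -0.81 ± 0.18, -0.60 ± 0.10 and -0.68 ± 0.15 (adjusted p = 0.0358, 0.0475, 0.0147 and 0.0475). MYB29 (AT5G07690), a regulator of aliphatic glucosinolates, was 1 of 15 genes of that list to pass, at -0.59 ± 0.13 (adjusted p = 0.0457). Each of these differences was under 2-fold.

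**Figure D4:**
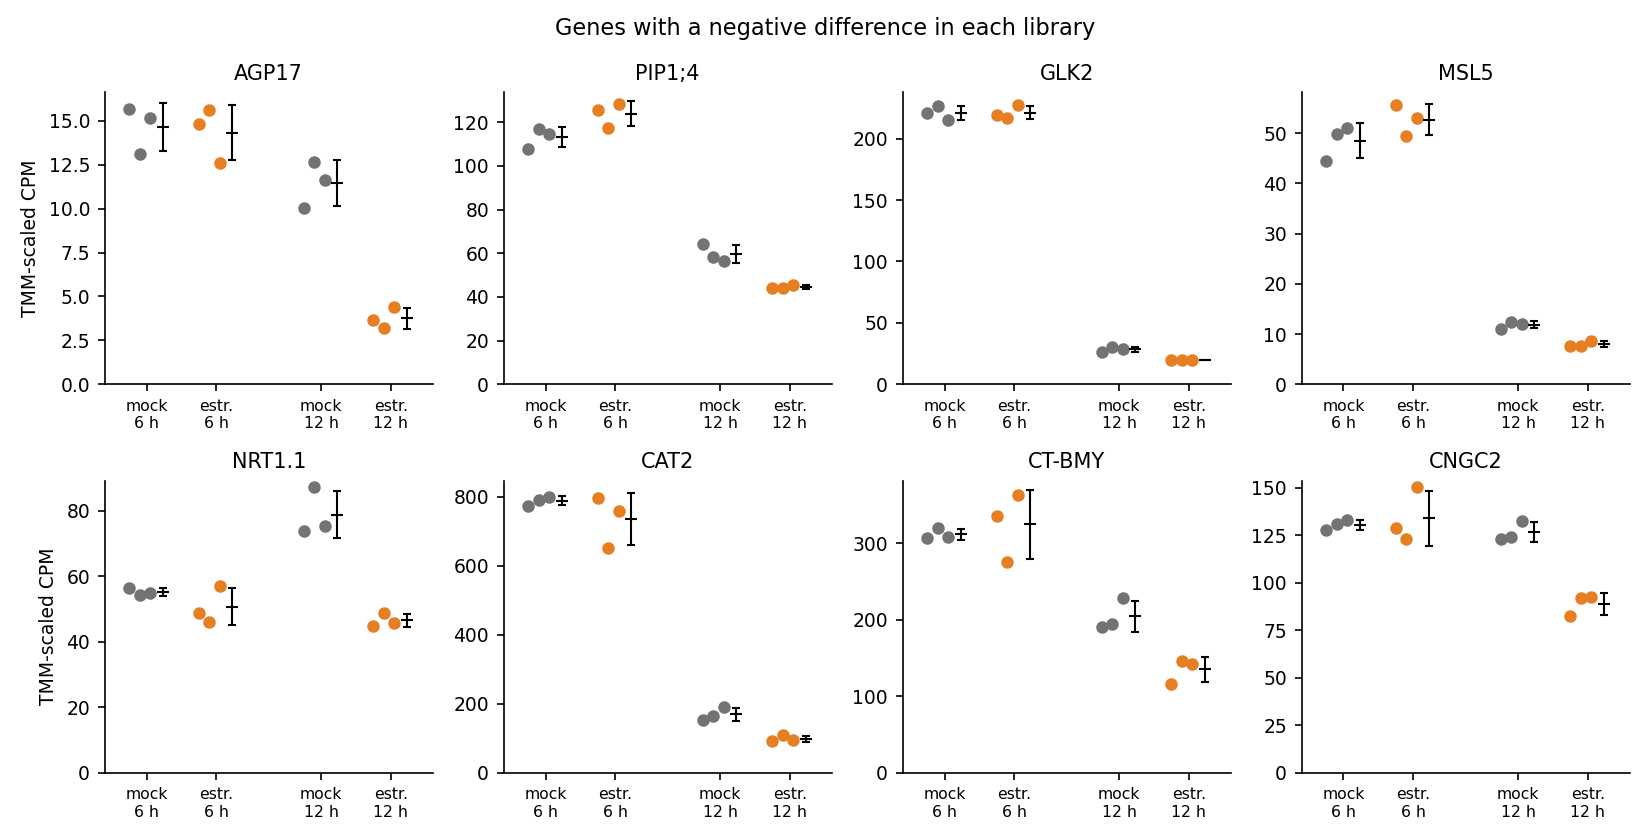
TMM-scaled CPM (y axes, each from 0) of 8 genes with a negative difference in each library of the 4 groups (x axis; grey mock, orange estradiol; black bars mean ± SD, n = 3). Estradiol and mock libraries are separated at 12 h in all 8 panels, with estradiol lower; in GLK2, MSL5 and CAT2 both treatments are at least 2-fold lower at 12 h than at 6 h.

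The level at which these effects were measured differed between the times. TMM factors were 0.909 to 0.946 in the 6 h libraries and 1.24 to 1.28 in the 12 h libraries. Levels set against each other between the times rest on this scaling, and they were not compared without it. In mock-treated leaves 33 of the 92 negative genes (35.9%) had a mean at least 2-fold lower at 12 h than at 6 h, against 10.6% of the 19166 tested genes above 0 in all 4 groups. GLK2, CAT2, MSL5, NHX2, SNZ and DFL2 are among them. In 70 of the 92 both treatments were lower at 12 h, in 11 both were higher, and in 11 mock was higher and estradiol lower, as for NRT1.1. Of the 60 positive genes 43 were higher at 12 h in both treatments, 10 were lower in mock and higher with estradiol, and 7, ICS1 among them, were lower in both. Over the 19166 genes 46.0% were higher in both, 43.0% lower in both, 5.11% lower in mock and higher with estradiol, and 5.95% the reverse. The labels used here do not give the hour of spraying or sampling, and time after spraying and hour of the day cannot be told apart in the levels. LHCB1.1, an antenna gene, was at 6537 ± 227 CPM in mock leaves at 6 h and 53.7 ± 11.5 CPM at 12 h.

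Jasmonate genes had mostly negative differences, and none passed. Of 22 JAZ and MYC branch genes 20 were below 0 with a median of -0.44, and of 13 synthesis genes 9 were below 0 with a median of -0.25. Both rest on estradiol 6 h replicate 3: without it 15 of 22 and 4 of 13 were below 0, with medians of -0.07 and 0.07. The JAZ and MYC genes lay at medians of 0.02, -0.18 and 0.71 from the mock mean in the 3 estradiol libraries of 6 h and at -0.08, -0.09 and -0.12 in those of 12 h. VSP2, a vegetative storage protein induced by jasmonate, stood at 527, 503 and 565 CPM in the mock and 656, 161 and 1479 CPM in the estradiol libraries at 6 h. VSP2 at 12 h was at 75.0, 158 and 50.6 CPM in mock and 16.7, 24.1 and 35.1 CPM in estradiol libraries. The 6 h estradiol libraries spanned from far below to far above mock, with replicate 3 the highest, and the difference of -2.44 ± 0.90 (adjusted p = 0.241) became -1.53 (adjusted p = 0.438) without that library. AOS, the allene oxide synthase, had a difference of -0.70 ± 0.34 (adjusted p = 0.403), and -0.25 without it, and LOX2, the chloroplast lipoxygenase, one of -0.61 ± 0.43 (adjusted p = 0.594), and -0.17 without it. MYC4, a transcription factor of the branch, was lower with estradiol at 12 h, at 19.1, 21.0 and 22.4 against 24.6, 29.2 and 27.1 CPM, and its difference of -0.35 ± 0.09 did not pass (adjusted p = 0.0866).

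Markers of other leaf tissues gave the following values. Epidermal markers had 4 members negative at an unadjusted p under 0.05 (7.61% of all genes tested) and none called. Their median difference was -0.28, with 11 of 12 below 0. The sum of their levels ran from 1460 to 1480 CPM in mock and from 1620 to 1750 CPM in estradiol libraries at 6 h, and from 753 to 785 and from 718 to 793 CPM at 12 h. Guard cell and vascular markers had medians of -0.05 and 0.01 and no calls. The part of the epidermal values in the cell wall and aquaporin results was not tested, and in whole leaves fewer cells of a type and less RNA per cell cannot be told apart.

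**Figure D5:**
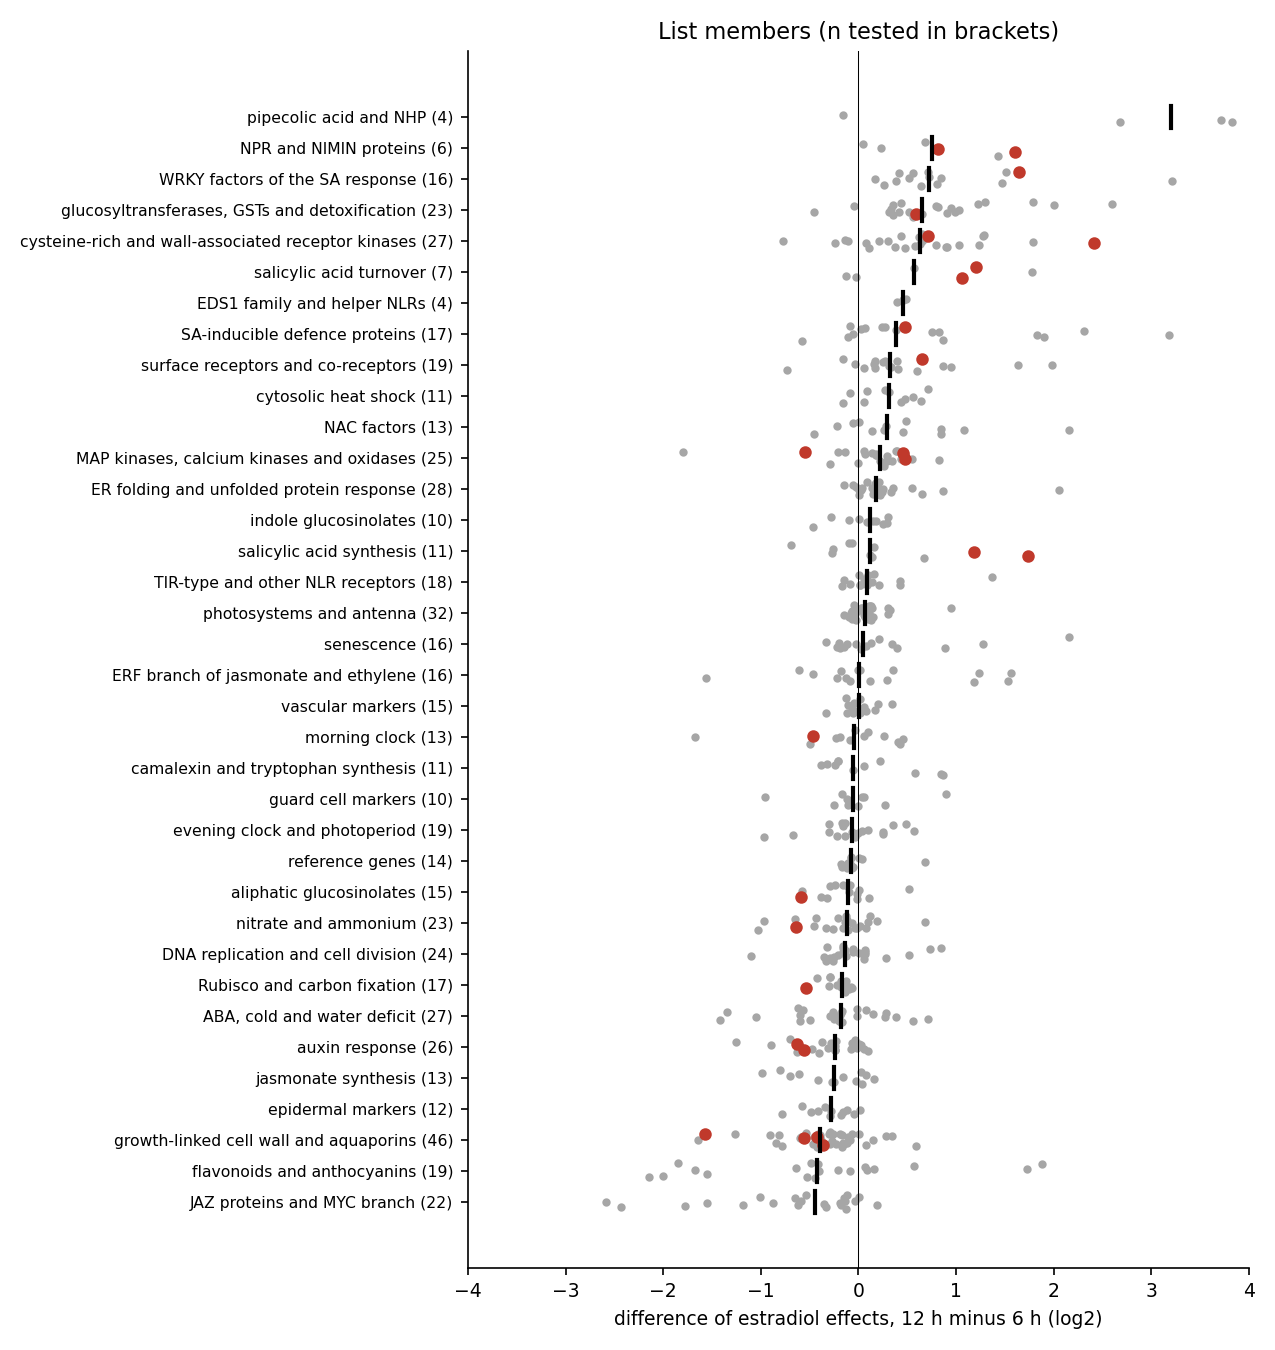
Difference of the estradiol effects, 12 h minus 6 h (log2, x axis), for each tested member of 36 gene lists (rows, ordered by median; number tested in brackets). Red points passed the test, grey points did not, and black bars are list medians; 2 members lie outside the axis. The NPR and NIMIN list (median 0.75) and the WRKY list (0.72) lie to the right of 0, and the growth-linked cell wall and aquaporin list (-0.39) to the left.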

How the data were processed

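The deposited table holds raw read counts per gene for the 18 libraries, whole numbers that the authors did not normalize. Per the submitters' processing notes, FastQC 0.11.2, TopHat2 2.0.10 and HTSeq were used with TAIR10; which annotation, strand setting and overlap mode HTSeq used is not given in the sources used here. Reads of a gene and of one overlapping it, or antisense to it, cannot be separated. Libraries were made from polyadenylated RNA, per the labels' protocols. The 5 classes of unassigned reads (5.76 to 6.71% of reads) were dropped.

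Counts were fitted with edgeR 4.0.16 in R 4.3.3: 1 coefficient per group, all 18 libraries, TMM scaling and filterByExpr (minimum count 10, minimum total 15), leaving 19227 of 32678 genes; 8174 were at 0 throughout. The contrast of the estradiol effects at 12 and 6 h was tested with the quasi-likelihood test, and Benjamini-Hochberg adjusted p under 0.05 was called. SE is the size of the log2 value divided by the square root of F. Replicates differed by more than counting noise in every pair within a group (chi-square over its degrees of freedom 2.96 or more). Library medians of gene lists are on log2(CPM + 0.5) against the mock mean. Names, products and promoter windows came from RefSeq on TAIR10.1.

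Named genes were PAD4 and EDS1, the 12 largest differences in each direction among called genes with a symbol, no overlap at the time of the larger effect and an average log2 CPM not under 1, 13 salicylic acid and jasmonate genes, and up to 2 called members, or else the member of smallest p, of each of 39 lists (757 entries: 691 used, 6 second names of a locus, and 60 left out because the name had no locus or several, belonged to another gene or was not paired with its locus); others are said in the text to be picked out after their values were seen, and further list members are named beside these. Members and lists were chosen with earlier results of these data known. The code was tested on simulated counts. Alternatives were 2 other scalings, no filter and a filter of 1 CPM in 3 libraries, DESeq2 1.42.0, limma-voom (limma 3.58.1), a replicate block, only the 12 libraries, each library left out, an adjusted p under 0.01 and a size of 1.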

Additional observations from a re-analysis of the deposited data

Results flagged for a closer look

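The named genes below are set apart because their estradiol effects at 12 h and at 6 h differed by the test of the difference itself. Positive differences (log2, 12 h minus 6 h) were 2.42 for CRK7, 1.74 for PBS3, 1.64 for WRKY70, 1.61 for NIMIN2, 1.40 for SIB1, 1.21 for DMR6, 1.18 for ICS1, 1.18 for RLP41, 1.17 for RK1, 1.08 for PMAT1, 1.07 for UGT74F2, 0.82 for NPR4, 0.82 for NAC102, 0.76 for CRK3, 0.71 for CRK2, 0.66 for SOBIR1, 0.59 for GSTF8, 0.48 for CNGC20 and 0.47 for MLO2. Negative differences were -1.58 for AGP17, -0.81 for ATTPPA, -0.79 for DFL2, -0.77 for NHX2, -0.70 for MSL5, -0.68 for SWEET2, -0.68 for CAT2, -0.68 for SNZ, -0.66 for CT-BMY, -0.64 for NRT1.1, -0.63 for IAA3, -0.60 for CIPK1, -0.60 for BOR1, -0.59 for MYB29, -0.56 for PIN3, -0.55 for CNGC2, -0.55 for PIP1;4, -0.54 for GLK2 and -0.46 for RVE4.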

How the results depend on the processing

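With 60 positive and 92 negative genes in the fit described, RLE scaling gave 54 and 62, upper-quartile scaling 71 and 83, no filter 74 and 99, a strict filter 59 and 96 and limma-voom 52 and 79. DESeq2 called 170 and 236 (148 of the 152 among them; the other 4, CRK7 included, got no adjusted p), only the 12 libraries of 6 and 12 h gave 144 and 103, an adjusted p under 0.01 left 1 and 5, and a size of at least 1 left 14 and 2. Leaving out 1 library gave 1 to 113 positive and 6 to 176 negative genes; the share of calls carried by 12 h ran from 72.6 to 100%, that with opposite signs from 0 to 22.1%, that of positive genes with TTGAC from 46.7 to 100% and that of negative genes with TTGAC from 31.1 to 50.0% (the values of 100, 0, 100 and 50.0% rest on the 7 genes left without mock 12 h replicate 2). A replicate block gave 66 and 64 genes. The labels do not say that replicate numbers pair samples, so the numbers were not taken to pair them. Same-numbered libraries deviated with correlations of -0.153 to 0.175. Differently numbered libraries were not compared, so these correlations cannot decide on pairing. Among uncalled differences, leaving out 1 library moved EDS1 between -0.34 and 0.11 (positive without estradiol 6 h replicate 3, mock 6 h replicate 3, estradiol 12 h replicate 2 or 3, or mock 12 h replicate 1 or 2), EDS5 between -0.32 and 0.45 (positive without estradiol 6 h replicate 3, and 0.03 with limma-voom), CBP60G between -0.13 and 0.42 (below 0 without estradiol 6 h replicate 2 or estradiol 12 h replicate 1) and PR5 between -0.18 and 0.07 (above 0 without estradiol 6 h replicate 1, mock 6 h replicate 1 or mock 12 h replicate 2). The cause of these moves was not tested. PAD4 passed with no filter (adjusted p = 0.0357), DESeq2 (0.0123), the 12 libraries alone (0.0245) and without estradiol 6 h replicate 3 (0.0487); its values ran from 1.23 to 1.65. At 22.6 to 37.5 M counts per library, effects of genes near the floor at 6 h, such as PR1 and FMO1, were not measurable.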
